A study of Mus musculus with 15 samples.

Results

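The mouse array carried 1104 probes whose names begin with humanlincRNA, out of 60915 distinct non-control probes left after 15 negative-control probes were set aside. They were taken by name alone, as all non-control probes with that prefix, and the sign before the probe suffix gave the strand. There were 549 plus-strand and 555 minus-strand probes under 557 numbers, and 547 numbers had a probe on each strand. Each probe was spotted once, so no spot-to-spot error within an array could be had. No source used here says what a number refers to, which genome the human prefix was taken from or which transcript a probe was designed against. The probes are therefore called by their names, and no function is attached to any of them.

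Long intergenic non-coding RNAs (lincRNAs) are transcripts that lie between protein-coding genes, are often capped, spliced and polyadenylated as messenger RNAs are, and carry no long open reading frame. Many lincRNA loci were first mapped by histone marks of active promoters and transcribed gene bodies, which do not tell the strand, and a probe on each strand then covers transcription in either direction. As a class they are known for low levels, for strong dependence on cell type, and for little sequence conservation between mammals. In liver, clamping and releasing the blood supply injures hepatocytes and brings inflammatory cells into the tissue, and a short clamp beforehand is known to lessen that injury.

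Liver RNA of C57BL/6 mice was hybridised to 15 one-colour arrays, 5 in each of 3 groups. Sham mice had a laparotomy and handling of the liver hilum with no vessel clamped. Ischaemia-reperfusion (I/R) mice had the left lateral and median lobes, 70% of the liver, clamped for 75 min, with 2 h of reperfusion to follow. Preconditioned (IPC) mice had 10 min of ischaemia and 10 min of reperfusion before the same I/R. All 3 groups were opened under pentobarbital anaesthesia. The design text speaks of 18 mice, 6 in a group, and no label says which mouse an array came from, so p-values measure only the spread between arrays. In bulk liver, fewer cells of a type and less RNA per cell cannot be told apart. Defining markers of liver cell types could not be checked, because no gene names were paired with probes here.

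The arrays lay on 2 slides as told from their scan times: slide 2 held the 5 sham arrays and I/R replicates 1 to 3, and slide 1 held I/R replicates 4 and 5 and the 5 IPC arrays. Sham and IPC were never on the same slide. The 75th percentile of log2 signal was 8.06 to 8.30 on slide 2 and 8.47 to 8.76 on slide 1. I/R replicate 3 and IPC replicates 1 and 3 carried a multiplicative detrend in their headers that the other 12 arrays lacked. Every level below is the log2 processed signal minus that array's own 75th percentile over all non-control spots, so a level of 0 equals that percentile.

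Most of these probes gave no usable signal in liver. A probe counts as detected on an array where the scanner software marked its spot as well above background. The detected share of the 1104 probes was lowest 17.0%, median 18.2% and highest 19.7% over the sham arrays. Over the I/R arrays it ran from 16.1% through a median of 18.3% to 26.4%, and over the IPC arrays from 20.7% through 22.6% to 25.4%. The group means were 18.3% ± 1.05 (SD, n = 5), 19.9% ± 4.44 (SD, n = 5) and 23.1% ± 2.03 (SD, n = 5). All IPC arrays stood above all sham arrays, while the I/R arrays overlapped both groups.

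The share moved with the slide inside the I/R group. The 3 I/R arrays on slide 2 detected 16.1%, 16.3% and 18.3% of the probes, and the 2 on slide 1 detected 22.6% and 26.4%. Within slide 2, I/R and sham overlapped, and within slide 1, I/R and IPC overlapped. The same step was seen over all non-control probes, at 49.98% to 53.6% on slide 2 and 55.0% to 59.6% on slide 1. The higher share on IPC arrays than on sham arrays cannot be told apart from the slide. Negative-control spots were detected at 0% to 1.33% of 300 spots per array, well below every share of the humanlincRNA probes.

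Plus-strand probes were detected somewhat more often than minus-strand probes on all 15 arrays. The plus share ran from 17.7% to 27.7% and the minus share from 14.6% upwards, to 139 of 555 probes, and the gap within an array was 0.638 to 5.45 percentage points with a median of 2.74. Other non-coding sets named on the array behaved alike in part: the 649 probes named mouselincRNA were detected at 16.9% to 27.6%, and the 83 probes named LINCRNAEXON at 28.9% to 43.4%.

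Counted over the 15 arrays, 125 humanlincRNA probes (11.3%) were detected on all of them, 118 (10.7%) on 5 to 14, 152 (13.8%) on 1 to 4 and 709 (64.2%) on none. Over all non-control probes the same shares were 45.4%, 12.1%, 8.57% and 33.9%, so the humanlincRNA probes were short of always-detected members and rich in never-detected ones. The mouselincRNA probes split in nearly the same way, at 12.6%, 12.3%, 10.8% and 64.3%. By strand, 71 plus and 54 minus probes were detected on all arrays, and 353 plus and 356 minus probes on none. Of the 152 probes detected on 1 to 4 arrays, 112 were detected on slide 1 alone and 20 on slide 2 alone. But 85 of the 152 were detected on exactly 1 array, and so on 1 slide by construction. The same split over all non-control probes is not given here, so it is not read as a trait of these members. The software gives spots that do not exceed background a floor value, and 317 humanlincRNA probes (28.7%) sat at that floor on every array.

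Among the 547 numbers with both strands, 31 had both probes detected on 5 or more arrays, 94 had the plus probe alone, 84 the minus probe alone and 338 neither. The 31 shared numbers are 24.8% of the plus probes so detected, beside the 21.3% of all minus probes that were detected as often. They are 27.0% of the 115 minus probes so detected that had a plus partner, beside 22.8% of all plus probes. In 42 numbers the plus probe was detected on all 15 arrays and the minus probe on none, and in 29 numbers the reverse held. Both strands were never detected in 228 numbers.

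The 243 probes detected on 5 or more arrays, 125 plus and 118 minus, were the ones tested between groups, and the other 861 were not. Their mean level over 15 arrays had a median of -1.87, against -0.50 over all non-control probes detected as often. By strand the median was -1.56 for plus and -2.17 for minus probes. Probes detected on all arrays had a median of -0.67 (0.26 over all probes so detected), and 41 of those 125 (32.8%) lay above their arrays' 75th percentile, against 54.3% of all probes so detected. Probes detected on 5 to 14 arrays had a median of -2.75, close to the -2.81 of all such probes. A probe's brightness also depends on its sequence and labelling, so these levels are signal and not transcript amounts.

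A few members were very bright. Only 9 had a mean level above 2, and 6 of them were above 4: humanlincRNA0324-_P1 at 6.92, humanlincRNA2268-_P1 at 6.48, humanlincRNA2397+_P1 at 5.65, humanlincRNA2438+_P1 at 5.39, humanlincRNA1739+_P1 at 4.88 and humanlincRNA2330+_P1 at 4.37. The brightest exceeded 98.7% of all non-control probes. The next 4 were humanlincRNA1119+_P1 (2.61), humanlincRNA2163+_P1 (2.54), humanlincRNA0847-_P1 (2.37) and humanlincRNA1398-_P1 (1.99). humanlincRNA0847-_P1 varied most of these, from 1.33 to 3.47 within sham, 1.47 to 3.11 within I/R and 1.17 to 3.28 within IPC, and its groups overlapped throughout. No humanlincRNA spot was saturated.

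Replicate arrays scattered widely on these probes. The median within-group SD was 0.28 for humanlincRNA probes detected on all arrays and 0.13 over all probes so detected, and 0.49 against 0.38 for those detected on 5 to 14. Slide entered here too. Between the 2 I/R arrays of slide 1 and the 3 of slide 2, mice of one group, the median difference was 0.38 over the 243 humanlincRNA probes and -0.03 over all 34985 tested probes. Of the 243, 182 (74.9%) were higher on slide 1, against 45.6% of all tested probes. The step depended on detection over the whole array. For probes detected on 5 to 14 arrays, 79.7% of humanlincRNA probes were higher (median 0.50), against 67.4% of all such probes (0.20). For those detected on all arrays it was 70.4% (0.26) against 39.8% (-0.06). Both strands showed it, at 0.36 for plus and 0.40 for minus probes. Each comparison below is therefore also given with slide as a block and, where a slide held both groups, within that slide.

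The first comparison asked what clamping and reperfusion changed relative to sham surgery. At an adjusted p under 0.05 (limma, Benjamini-Hochberg over all 34985 tested probes), 47 of the 243 humanlincRNA probes were called, or 19.3%, beside 30.9% of all tested probes. Of these 29 were higher in I/R and 18 lower, against backgrounds of 14.5% and 16.4% of all tested probes. Among probes detected on all arrays 28 of 125 (22.4%) were called, with a background of 34.6%, and among those detected on 5 to 14 arrays 19 of 118 (16.1%), with a background of 17.1%. The strands were alike in number, with 24 plus probes (17 higher, 7 lower) and 23 minus probes (12 higher, 11 lower). The median difference was 0.00 over the 243, and -0.03 over all tested probes.

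Called differences of at least 2-fold were found for 13 of 243 humanlincRNA probes (5.35%), 9 higher and 4 lower, where 1.86% of all tested probes had one. Detection class enters that contrast. Among probes detected on all arrays 4 of 125 (3.2%) had one, with a background of 1.29%. Among those detected on 5 to 14 arrays 9 of 118 (7.63%) did, with a background of 3.98%. The 5 I/R and 5 sham values did not overlap for 31 probes (12.8%), against 23% of all tested probes. With slide as a block 66 were called (27.2%, beside 35% of all tested probes), 27 higher and 39 lower, and 40 of the 47 were among them with the same sign. Within slide 2 alone, 52 were called (21.4%, beside 28.9%), 19 higher and 33 lower, with 35 of the 47 among them. Slide as a random block gave 25 higher and 25 lower (20.6%, beside 32.3% of all tested probes). Scaling to probes detected on all arrays gave 33 higher and 12 lower, a setting whose counts over all tested probes are not given here. The balance between rises and falls was thus not settled by these arrays.

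The largest rise was that of humanlincRNA1728+_P1, which was singled out after its values were seen, because 1 sham array had not detected it. Its level was -2.08, -2.56, -3.68, -2.22 and -2.40 in sham and 0.25, 0.36, 0.65, 0.35 and 0.28 in I/R. In IPC it was 0.12, 0.51, 0.52, 0.24 and 0.38. Every array of a clamped liver, preconditioned or not, stood above every sham array, and I/R and IPC overlapped. I/R exceeded sham by 2.97 (SE 0.23; 7.82-fold; adjusted p = 6.67e-07), and the difference was 3.01 with slide as a block and within slide 2. It was 1.88 (3.67-fold) with the normexp background correction, which adds a constant of 50 to every signal. Without sham replicate 3, the array that had not detected the probe, it was 2.69, so the size of the fold is not firm. IPC exceeded sham by 2.94 (adjusted p = 6.99e-07; 3.05 with the slide block), and IPC minus I/R was -0.02 (SE 0.23; adjusted p = 0.970).

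The opposite strand of that number gave another picture. humanlincRNA1728-_P1 was detected on all 15 arrays at -0.19 to 0.41 in sham, -0.52 to 0.44 in I/R and 0.15 to 0.37 in IPC. The 3 groups overlapped, and I/R minus sham was -0.05 (SE 0.16; adjusted p = 0.856). The gap between the responses of the strands was not itself tested. Across the 31 numbers with both probes tested, 8 had the plus probe called in I/R minus sham and 3 the minus probe, 20 had neither, and none had both. With so few calls on either strand, that absence is not read as a difference between strands.

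Among probes detected on all arrays, humanlincRNA1518-_P1 rose most. It read -1.82, -1.94, -2.06, -1.42 and -2.04 in sham and -0.71, -0.58, -0.24, -0.54 and -0.57 in I/R. The groups were well apart, and IPC lay at -1.02 to -0.62, also above sham. The rise was 1.33 (SE 0.12; 2.51-fold; adjusted p = 2.46e-06) and 1.34 with slide as a block, but 0.80 with the normexp background correction, which also kept the call.

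humanlincRNA0323+_P1 stood at -0.89, -0.94, -2.38, -0.73 and -1.05 in sham and at -0.02, -0.02, 0.05, 0.03 and -0.08 in I/R. Sham replicate 3 was far below the rest, yet even the highest sham array was under all I/R arrays. The difference was 1.19 (SE 0.25; adjusted p = 0.00213). Its IPC arrays, at -1.14 to -0.48, were below all I/R arrays, but that difference of -0.79 missed the threshold (adjusted p = 0.0699).

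The next rises were humanlincRNA0531-_P1 by 1.15 and humanlincRNA2474-_P1 by 0.99, and neither was called within slide 2 alone, where fewer arrays gave 1.15 and 0.83 (adjusted p = 0.0674 and 0.0504). humanlincRNA0312+_P1 rose by 0.90 (SE 0.22; adjusted p = 0.00668), from -1.31 to -0.78 in sham to -0.46 to 0.30 in I/R. humanlincRNA1396+_P1 rose by 0.85 (SE 0.13; adjusted p = 0.000208), from 0.90 to 1.47 in sham to 1.78 to 2.36 in I/R. In both the groups were separate, and both kept their calls within slide 2, at 1.11 and 0.99. Their opposite strands, also tested, were not called: humanlincRNA0312-_P1 differed by -0.27 (adjusted p = 0.490) and humanlincRNA1396-_P1 by 0.18 (adjusted p = 0.754).

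humanlincRNA1172-_P1 was at -0.85, -0.67, -0.78, -0.75 and -0.78 in sham and at -0.28, -0.05, 0.14, -0.37 and -0.18 in I/R. The sham arrays lay close together and below all I/R arrays, and the rise was 0.62 (SE 0.08; adjusted p = 5.23e-05). humanlincRNA1172+_P1 had the other sign, -0.76 (SE 0.39), and was not called (adjusted p = 0.161). Its I/R replicate 3, at -0.79, lay far below the other 4 I/R arrays at 0.97 to 1.52. humanlincRNA0846+_P1 rose by 0.57 (SE 0.11; adjusted p = 0.00117), with separate groups, a value of 0.51 within slide 2 and one of 0.32 with the normexp correction.

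The bright humanlincRNA2268-_P1 rose as well, and its I/R arrays split by slide. Sham values were 5.97, 5.93, 6.02, 6.07 and 5.56. I/R values were 6.51, 6.46 and 6.19 on slide 2 and 7.16 and 7.06 on slide 1. All I/R arrays exceeded all sham arrays, and the slide 1 pair exceeded the slide 2 trio. I/R minus sham was 0.76 (SE 0.17; adjusted p = 0.00363) over all arrays and 0.48 within slide 2 (adjusted p = 0.0328).

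Only 4 probes met the same conditions among the falls, detected and separate on all 10 arrays. humanlincRNA0635+_P1 fell furthest, from 1.73, 1.89, 2.07, 1.97 and 1.37 in sham to 0.67, 0.67, -0.49, 0.76 and 1.09 in I/R. I/R replicate 3 was lowest by far, and the other 4 were also under all sham arrays. The difference was -1.27 (SE 0.23; 2.41-fold; adjusted p = 0.000933) and -1.52 within slide 2. IPC, at 0.81 to 1.27, also lay below all sham arrays, by -0.82 (adjusted p = 0.0162; -1.46 with the slide block).

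humanlincRNA2438+_P1, one of the brightest, was very even: 5.60, 5.63, 5.60, 5.57 and 5.52 in sham, and 5.23, 5.17, 5.21, 5.21 and 5.33 in I/R. Its fall of -0.35 (SE 0.05; adjusted p = 9.8e-05) was small but larger than the spread within either group. Slide made little difference, at -0.38 with the block. humanlincRNA1245+_P1 fell by -0.29 (SE 0.10; adjusted p = 0.0373), a call lost in 10 of 28 alternative settings. The fourth, humanlincRNA0111+_P1, belongs with the next comparison.

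The second comparison asked what preconditioning changed in livers that then had the same I/R. Few humanlincRNA probes were called: 8 of 243 (3.29%), beside 7.78% of all tested probes, with 1 higher in IPC and 7 lower, against 3.45% and 4.33% of all tested probes. At an unadjusted p under 0.05 there were 26, and 19.9% of all tested probes. By strand, 3 plus and 5 minus probes were called. The share was 5 of 125 (4.0%, background 9.2%) for probes detected on all arrays and 3 of 118 (2.54%, background 2.47%) for the rest. Groups did not overlap for 8 probes, or 3.29%, against 8.34% of all tested probes. With slide as a block 7 were called (2.88%, beside 7.22% of all tested probes), and 4 of the 8 were among them. Within slide 1, 6 were called (2.47%, the same as the 2.47% of all tested probes), and 3 of the 8 were among them. Leaving out I/R replicate 2, I/R replicate 5 or IPC replicate 4 left 5 calls each, and leaving out IPC replicate 5 left 4. The shares of all tested probes called in these fits are not given here.

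humanlincRNA0111+_P1 was the one probe called higher in IPC than in I/R. Its level was 1.67, 2.11, 1.86, 1.73 and 1.79 in sham, 1.40, 1.49, 1.36, 1.31 and 1.40 in I/R, and 2.07, 2.16, 2.08, 2.31 and 2.15 in IPC. All I/R arrays lay below all arrays of the other groups, while sham and IPC overlapped through sham replicate 2. I/R minus sham was -0.44 (SE 0.08; adjusted p = 0.000658) and IPC minus I/R 0.76 (SE 0.08; 1.70-fold; adjusted p = 3.57e-05). Both held in all 28 alternative settings tried, and within slide 1 the latter was 0.80 (adjusted p = 0.00987). IPC minus sham was 0.32 and also called, a call lost with median scaling and with slide as a fixed block.

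humanlincRNA0083-_P1 was called lower at both steps. It read -0.88, -0.91, -0.89, -1.14 and -0.84 in sham, -1.14, -1.26, -1.56, -1.27 and -1.28 in I/R, and -1.86, -1.98, -1.95, -1.95 and -2.14 in IPC. IPC was below every other array, and I/R met sham at 1 array. I/R minus sham was -0.37 (SE 0.08; adjusted p = 0.00341), IPC minus I/R -0.67 (adjusted p = 0.000173) and IPC minus sham -1.04 (2.06-fold; adjusted p = 6.76e-07). These 3 comparisons share arrays. All 3 calls held in every alternative setting tried, and IPC minus I/R was -0.70 within slide 1 (adjusted p = 0.0146).

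humanlincRNA0115+_P1 was higher in I/R than in either other group. Sham was -2.42, -2.38, -2.96, -2.56 and -2.42, I/R was -1.75, -1.52, -1.19, -1.84 and -1.67, and IPC was -2.21, -2.39, -2.93, -2.56 and -2.47. I/R did not overlap either group, and sham and IPC overlapped fully. It rose by 0.95 in I/R (SE 0.15; adjusted p = 0.00031) and IPC minus I/R was -0.92 (adjusted p = 0.00178). IPC minus I/R was -0.75 within slide 1, where it was no longer called (adjusted p = 0.0841). With the normexp correction the rise was 0.46 and the fall -0.57, and both were called.

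humanlincRNA2350-_P1 had the largest fall, and it split by slide. The probe was detected on all 5 I/R arrays, but on only 3 IPC arrays and 1 sham array. Its IPC mean thus includes values not well above background, and the size of the fall is not firm. I/R was -1.89, -1.74 and -1.93 on slide 2 but -2.87 and -2.59 on slide 1, and IPC ran from -3.60 to -2.90. The I/R arrays of slide 1 were much closer to IPC than those of slide 2 were. IPC minus I/R was -1.001 over all arrays (SE 0.21; adjusted p = 0.0091) and -0.47 within slide 1 (adjusted p = 0.252). It was -0.61 with the normexp correction, and called.

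The remaining 4 calls of that comparison were falls. humanlincRNA1841-_P1, which the rule for naming probes does not cover and which was named after its values were seen, fell by -0.76 (adjusted p = 0.0239) and by -1.12 within slide 1 (adjusted p = 0.00471). The brightest probe, humanlincRNA0324-_P1, was at 6.81 to 7.02 in I/R and 6.57 to 6.72 in IPC. The groups did not meet, and the fall was -0.25 (SE 0.06; adjusted p = 0.0223). That call was lost in 10 of 28 alternative settings. Without I/R replicate 2, I/R replicate 5 or IPC replicate 5 the difference was -0.23, -0.24 and -0.22 (adjusted p = 0.0609, 0.0517 and 0.0627), and within slide 1 it was -0.21 (adjusted p = 0.183), so the size changed little. humanlincRNA1563+_P1 (-0.53) and humanlincRNA1172-_P1 (-0.28) were near the threshold and lost their calls in 18 of 27 and 21 of 28 alternative settings.

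In all, 7 probes were called in the first comparison as well as the second, 5 of them with opposite signs. The comparisons share the I/R arrays, so an I/R group that happened to lie high or low gives opposite signs by construction. Matching counts over all tested probes are not given here, so these counts are not read as results about these members.

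The third comparison set preconditioned I/R livers beside sham livers, 2 groups that share no slide. It called 41 of 243 humanlincRNA probes (16.9%), beside 30% of all tested probes. Of them 29 were higher in IPC and 12 lower, where the backgrounds were 13.5% and 16.4%. Plus probes gave 21 calls and minus probes 20. The share was 24 of 125 (19.2%, background 33.6%) for probes detected on all arrays and 17 of 118 (14.4%, background 16.6%) for the rest. Groups did not overlap for 33 probes (13.6%), against 27.3% of all tested probes.

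Slide changed these calls. With slide as a block, which links the groups only through the I/R arrays, 39 probes were called (16.0%, beside 20.9% of all tested probes), 12 higher and 27 lower, and 16 of the 41 were among them. The median difference of the 243 probes went from 0.07 to -0.30, while that of all tested probes stayed at -0.01. Median scaling gave 21 higher and 15 lower, scaling to probes detected on all arrays 32 and 7, and the normexp background correction 23 and 35. The balance of rises and falls thus had no settled direction. For these settings the counts over all tested probes are not given here, so the change is not read as particular to these members.

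The bright probes show both outcomes. humanlincRNA0324-_P1 fell from 7.09, 7.15, 7.17, 6.99 and 7.31 in sham to 6.68, 6.72, 6.71, 6.71 and 6.57 in IPC. The groups were apart, by -0.47 (SE 0.06; adjusted p = 6.55e-05), and by -0.40 with the slide block (adjusted p = 0.0192). humanlincRNA2268-_P1, at 6.66 to 7.05 in IPC, exceeded all sham arrays by 0.93 (adjusted p = 0.00089), but the slide block left 0.22 (adjusted p = 0.454). humanlincRNA0065+_P1 rose by 1.11 (adjusted p = 0.0246), and with the slide block its difference was -0.04 (adjusted p = 0.964). The normexp correction gave 0.64. That rise was also lost without sham replicate 5 (adjusted p = 0.0623), IPC replicate 4 (0.0555) or IPC replicate 5 (0.0555).

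Several rises seen in I/R were called here too and kept their calls with the slide block. humanlincRNA1518-_P1 rose by 1.05 (1.09 with the block), humanlincRNA1396+_P1 by 0.72 (1.07), humanlincRNA0846+_P1 by 0.82 (0.68) and humanlincRNA0956+_P1 by 0.31 (0.41). humanlincRNA2474-_P1 rose by 1.25, and that call was lost with the block (0.86, adjusted p = 0.130). With the normexp correction humanlincRNA1518-_P1 rose by 0.55, humanlincRNA0846+_P1 by 0.46 and humanlincRNA2474-_P1 by 0.83, all called. humanlincRNA0956+_P1 was very even, at 0.13 to 0.36 in sham, 0.62 to 0.87 in I/R and 0.50 to 0.70 in IPC, and its sham arrays met neither other group. Its call in IPC minus sham was lost with median scaling (0.21, adjusted p = 0.0687). Since both comparisons use the sham arrays, these values stand side by side and do not support each other.

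For 4 probes (0.362% of 1104) the spot was well above background on all 5 IPC arrays and on none of sham, beside 0.566% of all non-control probes. No humanlincRNA probe showed the reverse. They were chosen by these detections, so their folds are bounds on this scale alone, given as a description with no test. The bounds take no account of slide, which sham and IPC did not share. The bound sets the mean IPC level against the mean of the dimmest well-detected signal on the sham arrays. For humanlincRNA0755-_P1, with IPC levels of -1.80, -1.75, -1.92, -1.88 and -2.16, the bound was 2.02-fold. The bound was 1.45-fold for humanlincRNA0479+_P1, 1.36-fold for humanlincRNA0071-_P1 and 1.15-fold for humanlincRNA2281+_P1. With the normexp correction, the IPC to sham folds of humanlincRNA0755-_P1, humanlincRNA0479+_P1 and humanlincRNA0071-_P1 were under these bounds, at 1.69, 1.26 and 1.20. For humanlincRNA2281+_P1 it was 1.23, above its bound. With slide as a fixed block, IPC minus sham was 0.35 for humanlincRNA0479+_P1 and 0.17 for humanlincRNA0071-_P1. Over all alternatives, the lowest difference was 0.76 for humanlincRNA0755-_P1 and 0.29 for humanlincRNA2281+_P1. Both I/R arrays of slide 1 detected all 4 probes. Of the 3 I/R arrays of slide 2, 2 detected humanlincRNA0755-_P1, 1 detected humanlincRNA0071-_P1, 1 detected humanlincRNA2281+_P1 and 0 detected humanlincRNA0479+_P1.

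The 709 never-detected probes also shifted, and they shifted as the floor did. Their median difference was -0.11 in I/R minus sham, -0.23 in IPC minus I/R and -0.34 in IPC minus sham, for each strand alike. The floor value moved by -0.12, -0.23 and -0.35 on the same scale, and the negative-control spots by -0.12, -0.23 and -0.34. These values largely repeat one another. Never-detected probes sat at the floor on a median of 14 of 15 arrays. On the 12 arrays without a detrend, the median negative-control spot was itself at the floor. Without a filter on dim probes, IPC minus sham called 316 of 1104 humanlincRNA probes (28.6%, beside 26.5% of all probes), 282 of them lower. Those dim values carry the array's floor and scaling. Probes detected on fewer than 5 arrays were left out of every earlier count of calls. The 118 tested probes detected on 5 to 14 arrays still brought undetected values into those counts, some of them at the floor.

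Over the 3 comparisons, 63 of the 243 tested humanlincRNA probes (25.9%) were called at least once and 180 never, beside 41% of all tested probes called at least once. Across the 31 numbers with both probes tested, none had both strands called in the same comparison. Few were called on either strand, at most 8 plus and 3 minus probes in a comparison. The absence is therefore not read as a difference between strands.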

How the data were processed

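Total RNA was amplified with random primers, labelled with Cy3 and hybridised to 1-channel Agilent arrays on a mouse grid (build mm9, per the file headers). The authors deposited the output of Feature Extraction 11.0.1.1, whose processed signal is a background-subtracted intensity on a linear scale, with a floor for dim spots, per the file headers. From these deposited intensities, log2 levels relative to each array's 75th percentile were computed over all non-control spots. A probe was tested if 5 or more of the 15 arrays had it well above background (34985 probes, 57.4%). The fit used limma 3.58.1 in R 4.3.3, by group over all 15 arrays (12 residual degrees of freedom), with Benjamini-Hochberg adjustment and a threshold of 0.05. The script was tested on simulated data.

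Alternatives covered scaling, background correction, filter, moderation, slide, replicate number and single arrays left out. The normexp background correction started from median signals and added a constant of 50, which by itself makes folds of dim probes smaller. Leaving out the 3 detrended arrays was chosen after seeing the data. The members and lists were chosen with earlier results of these data known. Probes were named if called, separate between groups and detected on all 10 arrays of a comparison (10 largest each way), if among the 10 brightest, if detected on all arrays of 1 group and none of another, or if called in both I/R comparisons (5 largest). The number of arrays limits the precision.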

Additional observations from a re-analysis of the deposited data

Results flagged for a closer look

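Within-group values of the 36 named humanlincRNA probes (108 sets of 5 arrays) and of the detected share (3 sets) were searched for a single array far from the other 4, which chance finds in about 1 in 20 sets. Of these 111 sets, 14 held one, all of them probes. In sham, replicate 5 was lowest for humanlincRNA0065+_P1 (-2.50, nearest array -1.64), humanlincRNA1398-_P1 (1.57, nearest 2.45) and humanlincRNA2268-_P1 (5.56, nearest 5.93). Sham replicate 3 was lowest for humanlincRNA0323+_P1 (-2.38, nearest -1.05) and humanlincRNA1739+_P1 (4.03, nearest 4.69). Sham replicate 4 was lowest for humanlincRNA0083-_P1 (-1.14, nearest -0.91), and sham replicate 2 for humanlincRNA0956+_P1 (0.13, nearest 0.30).

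I/R replicate 3, which has the multiplicative detrend, stood apart for 4 probes. It was lowest for humanlincRNA0071-_P1 (-4.99, nearest -3.27), humanlincRNA0635+_P1 (-0.49, nearest 0.67) and humanlincRNA0846+_P1 (-1.44, nearest -1.12), and highest for humanlincRNA1728+_P1 (0.65, nearest 0.36). Among IPC arrays, replicate 5 was lowest for humanlincRNA0324-_P1 (6.57, nearest 6.68) and humanlincRNA1119+_P1 (2.07, nearest 2.65), and replicate 2 for humanlincRNA2330+_P1 (4.03, nearest 4.40).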

How the results depend on the processing

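Of 56 results of probes picked by the naming rules or after their values were seen, 30 kept direction and call in all alternatives run. The other 26 lost the call in at least 1. The losses were 16 of 56 with slide as a fixed block, 11 of 56 with slide as a random block and 9 of 32 within a slide. Not all 56 are named above. They include results of the 4 probes chosen by detection on all IPC and no sham arrays, whose calls are no support. The 1 reversal was humanlincRNA0065+_P1 in IPC minus sham, -0.039 with slide as a fixed block. I/R minus sham called 47 of 243 probes, and 29 of 125 where detection on all 15 arrays was required. IPC minus I/R called 8 of 243. It called 5 with median scaling and 4 without the 3 detrended arrays. With slide as a random block it called 4 (1.65%), beside 5.89% of all tested probes. IPC minus sham called 41 of 243, and 25 of 125 with detection on all 15 arrays. With slide as a random block it called 22 (9.05%), beside 18.2% of all tested probes. With no filter it called 316 of 1104 (28.6%), beside 26.5% of all probes. Leaving out 1 array at a time gave 37 to 52, 4 to 10 and 33 to 46 calls. Counts given here without a share over all probes are not read as results about these members.

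Residuals of same-numbered arrays had correlations from -0.37 to 0.51, and 5 of 15 such pairs were above 0.1. Pairs with different numbers were not set beside them, so this check cannot tell whether replicate numbers pair arrays. No label says that they do. With the replicate number as a block, 40, 5 and 35 of 243 probes were called in the 3 comparisons, and 4 of the 56 calls were lost. The shares of all tested probes called with that block are not given here.

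Detected shares under the looser mark of a positive and significant signal were 40.9% in sham, 42.5% in I/R and 46.6% in IPC. Leaving out arrays, the main shares ran from 17.9% to 18.6%, 18.3% to 20.9% and 22.5% to 23.7%. Normexp correction, with its added constant of 50, raised the median level to -1.09 for plus and -1.40 for minus probes. These lay beyond the ranges without single arrays (-1.59 to -1.49 and -2.20 to -2.09).

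Median differences of probes detected on 5 or more arrays became, with slide as a fixed block, -0.17 (plus) and -0.16 (minus) in IPC minus I/R, and -0.28 and -0.31 in IPC minus sham. Normexp gave -0.041 and -0.069 for minus probes in these 2 comparisons. Without single arrays, I/R minus sham ran from -0.10 to 0.04 (plus) and -0.03 to 0.07 (minus), IPC minus I/R from -0.02 to 0.11 and 0.03 to 0.18, and IPC minus sham from -0.05 to 0.10 and 0.03 to 0.11. For probes detected on fewer arrays, the block gave 0.088, 0.078 and 0.16 (plus) and 0.087, 0.078 and 0.16 (minus) in the 3 comparisons. Quantile normalization left -0.0022 and -0.0025 (plus) and -0.0020 and -0.0024 (minus) in the comparisons with IPC. Without single arrays these dim probes ran from -0.21 to -0.03 on each strand in I/R minus sham, from -0.31 to -0.14 (plus) and -0.29 to -0.13 (minus) in IPC minus I/R, and from -0.37 to -0.30 and -0.36 to -0.31 in IPC minus sham. Signal over background limits what can be said of 861 of 1104 probes.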
